A study of Homo sapiens with 10 samples.

Results

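The microRNAs (miRNAs) of the imprinted 14q32 region, between the genes DLK1 and DIO3, were followed through 5 purifications in which a nucleic acid probe pulled an mRNA and its attached RNA out of living cells. Members were chosen by name: assays not ending in an asterisk whose number belongs to a miRNA of the region, with any letter or arm. This gave 50 of the 745 miRNA assays, 34 on panel 1 and 16 on panel 2. HepG2, a human liver tumour line, was purified with a control probe, with one for the mRNA of the cell cycle inhibitor p21 and with one for the mRNA of STAT3, a transcription factor switched on by cytokines. PC-3, a human prostate cancer line, was purified with a control and a p21 probe. Per the labels, probes were transfected for 24 hours, and RNA was taken up on streptavidin beads and extracted with TRIzol. Each purification was measured on 2 SYBR Green PCR panels with different assays (10 samples), and each condition was purified 1 time, so differences between purifications were not tested. How much RNA each purification carried over was measured by these assays alone, so a larger yield and stronger binding cannot be told apart. The labels do not give the sequence of any probe, and what the control probe binds is not described.

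The 14q32 region carries one of the largest miRNA clusters of the human genome. Its miRNAs are cut from long noncoding transcripts (MEG3, MEG8 and their neighbours) made from the maternal chromosome, while DLK1, DIO3 and the retrotransposon-derived gene RTL1 are expressed from the paternal one. The miRNAs are known from brain, placenta and stem cells and are raised in a subset of liver tumours. A miRNA finds its targets mainly through its seed, bases 2 to 8 from the 5′ end, so mature sequences are given first.

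RefSeq (GRCh38.p14) held a mature sequence on chromosome 14 for 49 of the 50 members, 31 of them under a newer name; miR-668 was not matched. The matched members span 213.6 kb, all on the plus strand. The first 5 sequences below belong to the members detected in at least 3 purifications, 5′ to 3′ with the seed in capitals.
miR-136: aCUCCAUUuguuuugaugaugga
miR-665: aCCAGGAGgcugaggccccu
miR-134: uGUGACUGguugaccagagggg
miR-412: aCUUCACCugguccacuagccgu
miR-485-3p: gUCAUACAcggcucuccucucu
The next 7 show the relatives, chosen because a detected member shares a run of at least 12 bases with another member.
miR-758: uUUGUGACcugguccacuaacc
miR-300: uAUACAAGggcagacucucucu
miR-381: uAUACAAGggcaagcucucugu
miR-495: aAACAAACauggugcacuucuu
miR-543: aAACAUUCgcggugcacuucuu
miR-376a: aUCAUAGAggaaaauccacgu
miR-376b: aUCAUAGAggaaaauccauguu
No seed was shared by members that were both detected. miR-300 and miR-381 have the seed AUACAAG in common, and miR-376a and miR-376b the seed UCAUAGA. miR-412 and miR-758 have different seeds but share the 13 bases ACCUGGUCCACUA, from base 6 of miR-412 and base 7 of miR-758. miR-495 and miR-543 share their last 12 bases.

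Few of the region's miRNAs were detected in any purification. Detection meant a Cq (the PCR cycle where fluorescence passes a set level, smaller when more RNA is present) of 35 or less. In HepG2 the control probe gave 5 of the 50 members, the p21 probe 8 and the STAT3 probe 10. The PC-3 control gave 1 and the PC-3 p21 purification 3. These were 10%, 16%, 20%, 2% and 6% of members, against 17.3%, 29.2%, 35.4%, 2.16% and 7.19% of the 695 other miRNA assays. In HepG2 the members' share was the lower one with each of the 3 probes, and in PC-3 the shares were close. In all, 13 members (26%) were detected somewhere, against 44.2% of all 745 assays. No member was detected in all 5 purifications, 2 were in 4, 3 in 3, 2 in 2 and 6 in 1.

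**Figure D1:**
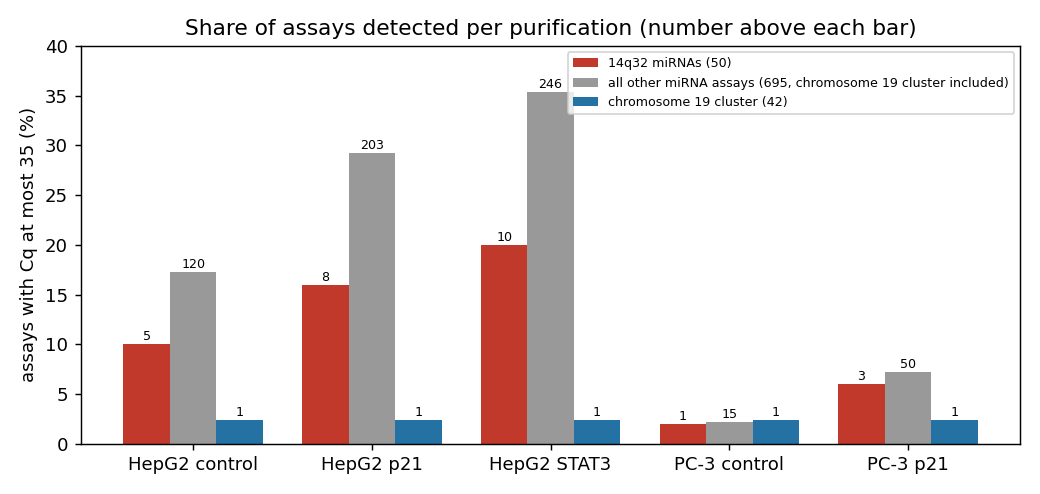
Percentage of assays with a Cq of at most 35 (vertical axis) in each of the 5 purifications, with the number of assays above each bar. The 14q32 miRNAs lie below the other miRNAs in the 3 HepG2 purifications (10% against 17.3%, 16% against 29.2% and 20% against 35.4%), and 1 of 42 chromosome 19 assays was detected in every purification.

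Another large imprinted cluster, on chromosome 19, is known from placenta. Of its 42 assays 1 was detected, miR-520h, and it was detected in each of the 5 purifications, at Cq 32.83 to 33.98. The 10 other assays of the 14q32 region, 9 opposite (star) strands of members and miR-1185, gave 0 with a Cq of at most 35 in any purification. The nearest was the star strand of miR-411, at Cq 35.68 with the STAT3 probe. Among liver-enriched miRNAs, miR-122, the defining hepatocyte miRNA, gave no Cq in any purification. miR-192, miR-194 and miR-215 passed the limit with the STAT3 probe alone. RNA carried over by a probe is not total RNA, so these readings cannot check which line was used.

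When every Cq was counted, however late, the members' share came close to that of all assays in 4 of the 5 purifications. It was 40% against 39.3% with the HepG2 control probe, 74% against 75.3% with the STAT3 probe, and 14% against 16% and 28% against 27.8% with the PC-3 control and p21 probes. With the p21 probe in HepG2 it stayed lower, at 42% against 55.8%. A further 28 members had such late readings only. The closest to the limit were miR-369-5p at 35.20 with the control probe, miR-127-3p (a miRNA antisense to RTL1) at 35.29 with the p21 probe, and miR-493 and miR-382 at 35.64 with the STAT3 probe. The 9 members with no Cq anywhere were miR-299-5p, miR-323-5p, both arms of miR-337, miR-376b, miR-409-5p, miR-411, miR-494 and miR-544. None of 45 water wells gave a Cq.

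The gain in HepG2 came from panel 2. Its 16 members gave 1 detected in the control, 5 in the p21 and 6 in the STAT3 purification, while the 34 members on panel 1 gave 4, 3 and 4. Over all assays panel 2 went from 4.59% to 22.4% and 31.6%, and panel 1 from 28.8% to 34.1% and 37.1%. The members' shares were 6.25%, 31.2% and 37.5% on panel 2, each above that of all its assays. On panel 1 they were 11.8%, 8.82% and 11.8%, each below. At this limit the members' lower share in HepG2 thus lay on panel 1. The excess on panel 2 did not hold in every purification at later limits. At Cq 37 the members' shares there were 12.5%, 43.8% and 50%, against 13.5%, 34.9% and 56.5% of all its assays. With any Cq they were 25%, 43.8% and 81.2%, against 26.2%, 49.2% and 70.5%. Over all assays both panels thus gained with each target probe, while the members on panel 1 did not at this limit. At Cq 37 those members gave 8, 8 and 12 in the control, p21 and STAT3 purifications, and with any Cq 16, 14 and 24.

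Along the chromosome, detected members lay at both ends of the region. RefSeq places miR-770-5p inside MEG3 and miR-136 inside RTL1, and miR-665 lies between these genes (chr14:100875075-100875094). Of the 12 members at this end, from miR-770 to miR-370, 3 were detected. The other 10 detected members come from the dense run between miR-379 and miR-656, which holds 38 members. Neighbours did not always go together: miR-134 (chr14:101054694-101054715) and miR-485-3p (chr14:101055464-101055485) lie within 1 kb and were both detected, while miR-668, between them in the cluster, gave a single Cq of 39.68. The mature sequences of the 13 detected members had a median GC content of 50% (34.8% to 70%), and those of the 36 matched members detected nowhere 46.5% (31.8% to 72.7%), so the ranges overlapped widely.

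**Figure D2:**
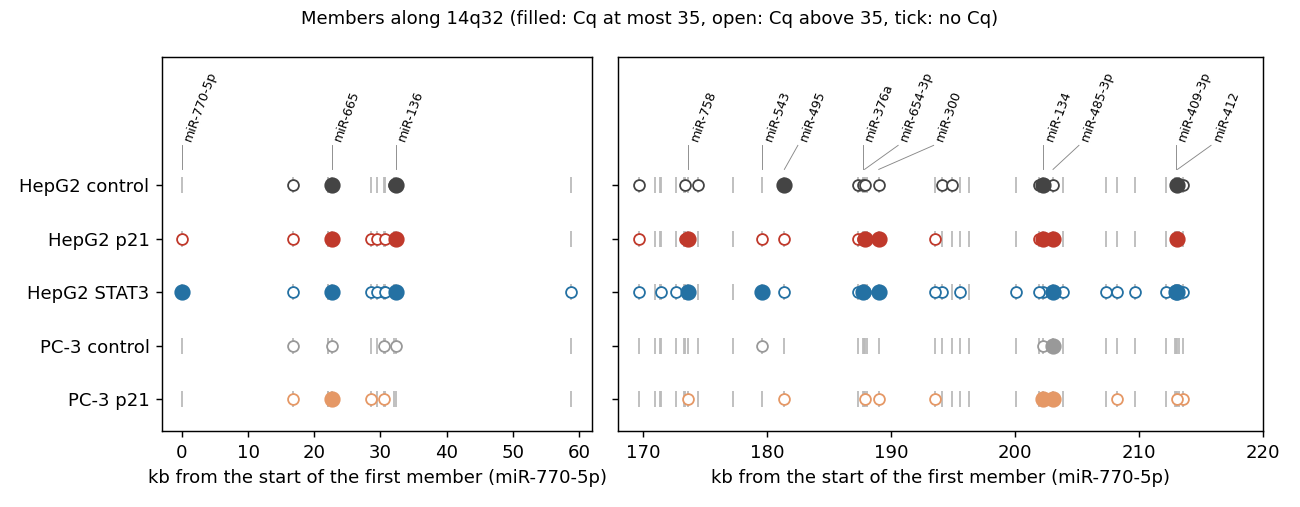
Each column of marks is 1 matched member, placed by its distance in kb from the first member; rows are the 5 purifications, and the panels (drawn at different scales) leave out a stretch without members. Filled circles (Cq at most 35) are few, with 10 in the STAT3 row and 1 in the PC-3 control row, and open circles (later Cq) are most frequent in the STAT3 row.

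miR-136 was the member with the lowest Cq of all, and it had it with the control probe. This miRNA is encoded antisense to RTL1 and is known to cleave that mRNA. In HepG2 it gave Cq 31.32 with the control, 32.44 with the p21 and 33.34 with the STAT3 probe. In PC-3 it gave 36.28 with the control and no Cq with the p21 probe. It was thus detected in HepG2 only, and by Cq alone, with yield not taken into account, the control purification was the high one.

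miR-412 followed the same order between control and target probes. It comes from the far end of the cluster (chr14:101065500-101065522). Its Cq was 32.95 with the HepG2 control probe, 34.60 with p21 and 34.44 with STAT3, and 37.62 with p21 in PC-3, with no Cq in the PC-3 control. miR-758, with which it shares 13 bases and which is reported to repress the cholesterol transporter ABCA1, ran the other way: no Cq with the HepG2 control, 34.84 with p21 and 33.81 with STAT3. In the HepG2 control purification one of these relatives was thus detected and the other gave no signal.

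In HepG2 miR-665 was detected with all 3 probes and miR-134 with the control and p21 probes. miR-665, the shortest detected member and the richest in GC (20 bases, 70%), gave 33.00, 31.81 and 32.42 with the control, p21 and STAT3 probes in HepG2, and 37.79 and 33.85 with the control and p21 probes in PC-3. Its 3 HepG2 readings lay within 1.19 cycles. miR-134, known for limiting dendritic spine growth in neurons, read 33.97, 33.98 and 35.38 with these HepG2 probes, and 36.44 (control) and 34.45 (p21) for PC-3. Both had a Cq in all 5 purifications, and both passed the limit in PC-3 only with the p21 probe.

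miR-485-3p and miR-300 both had their lowest Cq with the p21 probe in HepG2. miR-485-3p, a reported regulator of the metabolic coactivator PGC-1α, gave 35.13 with the HepG2 control probe, 32.30 with p21 and 34.43 with STAT3. In PC-3 it gave 34.90 and 34.95. By Cq alone, with yield not taken into account, the HepG2 p21 purification was thus the high one of the 5. miR-300 gave 38.84, 33.01 and 34.76 in HepG2, no Cq in the PC-3 control and 35.56 with p21 in PC-3. Its relative miR-381, which has the same base at 19 of 22 positions, gave 36.21 and 36.85 with the p21 and STAT3 probes in HepG2 and 37.44 with p21 in PC-3, and no Cq with either control probe. Both were thus lowest in Cq in the HepG2 p21 purification and latest or absent with the controls. The specificity of the assays among such relatives is not stated in the labels.

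**Figure D3:**
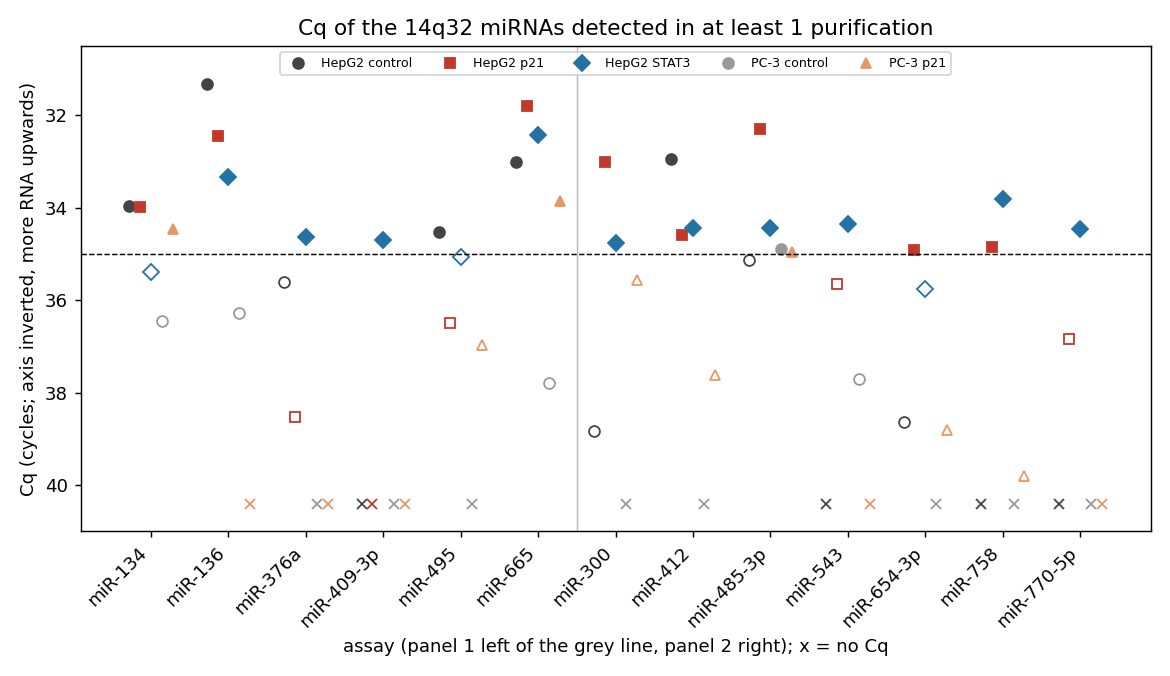
Cq in cycles (axis inverted) of the 13 members detected in at least 1 purification, with a marker for each purification, open above the limit of 35 (dashed line) and a cross for no Cq. miR-136 and miR-412 are highest with the HepG2 control probe (Cq 31.32 and 32.95), and miR-485-3p and miR-300 with the HepG2 p21 probe (32.30 and 33.01).

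The remaining 6 detected members passed the limit in 1 purification each. With the STAT3 probe alone these were miR-376a (34.63), whose family is known for editing of its precursors, miR-409-3p (34.69), miR-543 (34.35) and miR-770-5p (34.47). miR-654-3p, reported to repress p21, passed with the p21 probe at 34.92 and read 35.75 with STAT3 and 38.63 with the control probe. The other listed p21 regulator, miR-299-5p, gave no Cq. miR-495 passed with the control probe at 34.53 and read 35.07 with STAT3, a distance of 0.54 cycles across the limit. The Cq that passed lay within 1 cycle of the limit for each of the 6, so being detected in 1 purification rests here on small steps in Cq.

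The comparison of the p21 with the control probe in HepG2 asks which miRNAs come down with the p21 mRNA. The value of an assay is its Cq with the control minus its Cq with the target probe, in log2 units (1 cycle taken as a doubling), minus the panel's median over miRNA assays detected with both probes. A size of at least 1 (2-fold) was counted as higher or lower. The technical error was an SD of 0.718 cycles for a difference between purifications, from 14 pairs of reference or spike-in differences read on both panels; the error of the purification itself is unknown. Of 4 members measured with both probes 0 were higher and 3 lower, where 37.9% and 36.9% of all 103 assays were. miR-412 stood at -2.71 (6.55-fold lower, place 98 of 103 from the top), miR-136 at -2.42 (5.35-fold lower, place 94) and miR-134 at -1.32, and miR-665 lay at -0.11. The median of the 4 was -1.87, against 0 for all assays by construction.

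The size of these values, and for miR-136, miR-134 and miR-665 the direction, depended on the centre. Before centring miR-412 and miR-136 were -1.65 and -1.12, among 10.7% of assays at least 2-fold lower, while miR-134 was at -0.01 and miR-665 at 1.19. U6 moved the other way on panel 1, from Cq 30.63 with the control to 28.78 with the p21 probe. Centred on U6, SNORD38B and SNORD49A, all 4 members were at least 2-fold lower, with miR-665 at -1.25. Centred on the UniSp3 calibrator, miR-136 and miR-134 turned to 1.16 and 2.26, miR-665 came to 3.47, and miR-412 stayed at -1.81. On panel 1 the 3 UniSp3 wells read 21.6, 22.46 and 24.91 with the p21 probe.

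Members that crossed the limit were 4 with the p21 probe only (8% of 50, against 14.5% of all assays) and 1 with the control probe only (2% against 2.95%). With the control set at Cq 35, miR-485-3p was at least 3.12-fold higher with the p21 probe and miR-300 at least 1.90-fold. Neither bound held on the reference assays, where they came to -0.01 and -0.73 log2 units. These assays are U6, SNORD38B, SNORD49A, miR-423-5p, miR-191 and miR-103, each used where detected in both purifications. With the HepG2 control probe on panel 2, miR-423-5p gave no Cq and miR-191 read 35.93, so neither counted here. On U6, SNORD38B and SNORD49A alone, the bound of miR-485-3p was 0.19 and that of miR-300 was lost (-0.52). miR-758 and miR-654-3p had no bound above 1-fold with any of the centres, and 0.16 and 0.08 log2 units without one. miR-495, detected with the control only, was at least 3.42-fold lower, a bound that was lost with UniSp3 as the centre. In the authors' deposited table the members furthest from 1 for this comparison were miR-485-3p at 5.084 and miR-300 at 3.103 on the high side and miR-412 at 0.249 and miR-136 at 0.391 on the low side.

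After median centring, the 3 members measured with both the STAT3 and the same HepG2 control probe were lower or near the panel. Of these 0 were higher and 2 lower (29% and 25% of all 100 assays). miR-412 stood at -2.62 (6.14-fold lower, place 99 of 100), miR-136 at -2.50 (5.68-fold lower, place 97) and miR-665 at 0.09. Both comparisons subtract the 1 HepG2 control purification, in which miR-412 and miR-136 had their lowest Cq, so they are not independent. Before centring the values were -1.48, -2.01 and 0.58, and 20% of assays were at least 2-fold lower. With UniSp3 as the centre miR-136 came to -0.71, miR-412 to -1.39 and miR-665 to 1.88. miR-665 was at 1.07 on UniSp6 and -1.53 on the reference assays, so its place near the panel depended on the centre.

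The STAT3 probe brought 7 members across the limit that the control did not (14%, against 20.9% of all assays), and 2 were lost (4% against 3.36%). After centring on the panel median none of the 7 was 2-fold above the control set at the limit, and the highest bound was miR-758, at 0.06 log2 units. This depended on the centre. Without centring miR-758 came to 1.19, and on UniSp3 miR-376a, miR-409-3p and miR-758 came to 1.67, 1.61 and 1.29, so these were at least 2-fold higher with the STAT3 probe there. Of the 2 lost, miR-134 was at least 2.88-fold lower and miR-495 at least 1.95-fold lower, and both bounds were lost with UniSp3 as the centre, that of miR-495 with UniSp6 too. The authors' deposited table gives miR-431 at 0.328 and miR-654-3p at 0.336 for STAT3, although neither was detected with either probe at Cq 35. The authors' deposited table could be rebuilt within 0.01 log2 units for 46 of 50 members with UniSp6 as the normaliser and every Cq cut at 35. The other 4, miR-134, miR-382, miR-431 and miR-654-3p, came out within 0.01 when their STAT3 Cq was left uncut and the control was cut, which makes them lower than the rule used for the rest would. For miR-431 the deposited value is -1.61 on the log2 scale, against 0.49 with both sides cut. For p21 in HepG2 and in PC-3 all 50 were rebuilt with the cut.

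**Figure D4:**
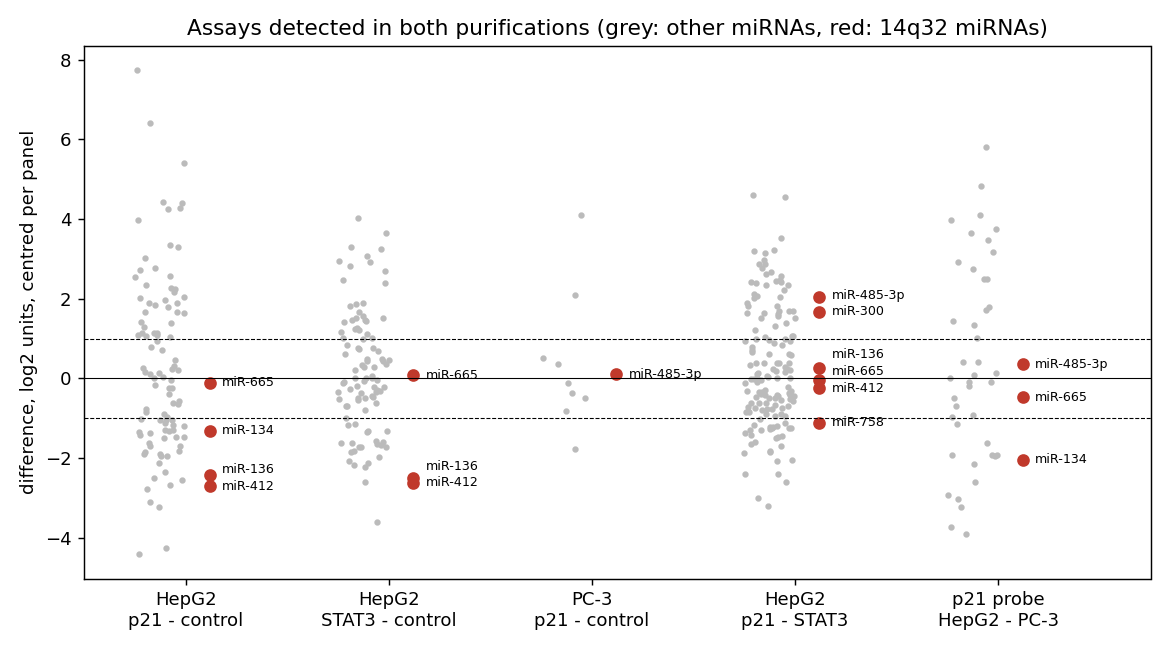
Centred difference in log2 units for assays detected in both purifications of 5 comparisons, with other miRNAs as grey points, the 14q32 miRNAs as named red points and dashed lines at 2-fold. miR-412 and miR-136 lie below -2 with both target probes against the HepG2 control, and miR-485-3p and miR-300 lie above 1 in the p21 against the STAT3 purification.

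Set directly against each other, the p21 and STAT3 purifications of HepG2 can be compared without use of the control, and among the 6 members detected in both the differences after median centring were largest for miR-485-3p and miR-300. Of these 6, 2 were higher with p21 (29% of all 155 assays) and 1 lower (20%), with a median of 0.11. The p21 purification exceeded the STAT3 one by 2.05 log2 units for miR-485-3p (4.14-fold, place 24 of 155) and by 1.67 for miR-300 (3.18-fold, place 33). miR-758 was lower, at -1.12. miR-136 (0.25), miR-665 (-0.03) and miR-412 (-0.25) were nearer to the panel than the technical SD after median centring. On UniSp3 miR-136 came to 1.87 and miR-665 to 1.59, and on the reference assays miR-665 came to -1.04 and miR-412 to -1.03. The values of miR-485-3p ran from 1.27 on the reference assays to 2.77 with every Cq used, and those of miR-300 from 0.89 to 2.39, so miR-300 fell short of 2-fold on the reference assays; miR-758 fell short on UniSp6 (-0.57) and with every Cq used (-0.40). A further 2 members passed the limit with p21 only (7.52% of all assays did) and 4 with STAT3 only (13.6%). After median centring miR-376a had the largest bound of the 6, at least 2.01-fold lower with p21. It was 1.29-fold without centring and was lost on UniSp3, where miR-134 had the largest, at least 4-fold higher with p21 (2.03-fold without centring).

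In PC-3 miR-485-3p was the one member measured with both probes, and its readings lay closer together than the technical SD. Its Cq of 34.90 and 34.95 gave a centred value of 0.11, on a panel centre that rests on 4 assays, where 20% of 10 assays were higher and 10% lower. On the reference assays, here U6, SNORD38B and SNORD49A alone, it came to -1.22. Detected with the p21 but not the control probe were miR-665 and miR-134 (5.77% of all assays were), and 0 members the other way round (0.805%). Their control readings of 37.79 and 36.44 lay above the limit, and with the control at 35 neither had a bound above 1-fold after centring on the panel median or the reference assays. Bounds in favour of p21 appeared for miR-665 on UniSp3 (0.76 log2 units), on UniSp6 (0.66) and without centring (1.15), and for miR-134 at 0.16, 0.06 and 0.55. The authors' deposited table gives miR-665 at 1.577, miR-485-3p at 1.455 and miR-134 at 1.043.

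Between the cell lines, HepG2 gave more of the region's miRNAs with the p21 probe than PC-3, as it did of miRNAs at large. Detected in HepG2 only were 5 members (22.3% of all assays) and in PC-3 only 0 (1.07%). For the 3 members detected in both, Cq was lower in HepG2 by 2.65 for miR-485-3p, 2.04 for miR-665 and 0.47 for miR-134. All assays shifted by a median of 2.41 cycles over 45 assays, so after centring miR-485-3p (0.35) and miR-665 (-0.47) lay near the panel and miR-134 was lower in HepG2 (-2.04, 4.11-fold), where 37.8% of assays were higher and 31.1% lower. That direction for miR-134 depended on the centre, at 0.47 without one and 1.52 on UniSp3. The places of miR-665 and miR-485-3p near the panel depended on it too. On UniSp3 they came to 3.09 and 1.72, and on U6, SNORD38B and SNORD49A to 1.54 and 1.04. UniSp6 gave 0.97 and 1.14, and the reference assays 0.78 and -0.34. With the control probes 5 members were detected in HepG2 only (15.4% of all assays) and miR-485-3p in PC-3 only (0.805%), at 34.90 against 35.13. miR-136, at 31.32 against 36.28, had the largest bound, at least 4.24-fold higher in HepG2 after centring on 6 assays, and miR-412 followed at 3.11-fold, centred on 4.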

How the data were processed

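The authors deposited unnormalised Cq values, 1 well per assay, from Exiqon SYBR Green RT-PCR panels per the labels; the labels name no instrument, threshold or software. The authors also deposited fold ratios, 2 to the power of minus ΔΔCt per the file headers, in columns titled as log values. Groups, cell lines and panels came from the labels. Assays with a Cq of at most 35 counted as detected, and differences were centred per panel on the median of miRNA assays detected in both purifications. For an assay detected on 1 side, a bound was computed with the other at 35. Centres came from all miRNA assays, and members' values alone are printed. Where reference assays served as the centre, those with a Cq of at most 35 in both purifications were used. With 1 purification per condition no test was made. The calculation was tested on simulated data in which each assay used was detected in both purifications, so the bounds were not tried. Members detected in at least 1 purification are named. The members and lists were chosen with earlier results of these data known. Older assay names were matched by hand to RefSeq arm names; the sequences of the assays themselves are not in the tables used. Cq is not compared between assays as a level, since efficiencies differ. Python 3.11.15, pandas 2.3.3 and numpy 2.4.6 were used.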

Additional observations from a re-analysis of the deposited data

How the results depend on the processing

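Counts of detected members followed the limit. In the order HepG2 control, p21 and STAT3, then PC-3 control and p21, Cq 32 gave 1, 1, 0, 0 and 0; Cq 37 gave 10, 15, 20, 3 and 6; with any Cq, an alternative chosen after seeing the data, 20, 21, 37, 7 and 14. At Cq 32 no member was measured in both purifications of any comparison. Members at least 2-fold away in either direction were 3 for p21 against control in HepG2, and 5 with undetected assays at the limit and 10 with any Cq. There were 2 on UniSp6, and 4 at Cq 37, on the reference assays, on U6, SNORD38B and SNORD49A, and on UniSp3. On UniSp3 the 4 included miR-136, miR-134 and miR-665 as higher. For STAT3 the count was 2, and 11 with any Cq. It was 3 at Cq 37, on the reference assays, on U6, SNORD38B and SNORD49A, on UniSp6 and with undetected assays at the limit. For p21 in PC-3 it was 0, and 1 on the reference assays, 1 with undetected assays at the limit and 3 with any Cq. The reference assays detected in both PC-3 purifications were U6, SNORD38B and SNORD49A alone, so centring on those gave the same result by construction. For p21 against STAT3 it was 3, and 6 at Cq 37, 5 on UniSp3 and 11 with any Cq. It was 2 on UniSp6, and 4 on the reference assays and with undetected assays at the limit. For the p21 purifications of the cell lines it was 1, and 3 at Cq 37, 2 without centring, 0 on the reference assays, 2 on U6, SNORD38B and SNORD49A, 3 on UniSp3, 4 with undetected assays at the limit and 6 with any Cq. On UniSp3 the median for p21 against control in HepG2 turned from -1.87 to 1.71, miR-136 to 1.16 and miR-134 to 2.26. There miR-665 moved from -0.11 to 3.47. Between the cell lines miR-134 turned to 1.52 on UniSp3 and 0.47 without centring. The causes were not tested. miR-412 stayed below 0 against the HepG2 control under every alternative run, from -4.36 to -1.65 for p21 and from -3.80 to -1.39 for STAT3. The members' detected readings lay between Cq 31.32 and 34.95, with no repeat wells, so their error there was not measured; the SD of 0.718 cycles comes from other assays and also holds offsets between panels. No paired analysis was possible because each condition has 1 purification.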
